A study of Mus musculus with 116 samples.

Results

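Cells of the mouse line FDB1 that carry the V449E receptor mutant were compared 12 hours after IL-3 was removed with the same cells at 0 hours, the time of removal. The comparison rests on 2 of the 58 dye-swap pairs of 2-colour arrays in the study, or 4 arrays, taken by their titles, which pair the 12-hour RNA with the 0-hour RNA of the V449E line in both dye orders for replicates 1 and 2. FDB1 is a myeloid progenitor line that depends on an added growth factor. All lines grew in medium with 10% serum and 500 U/mL of IL-3, and at 0 hours all were washed free of it. V449E cells, and cells carrying another receptor mutant, FI-Delta, were then kept without factor for 6, 12, 24, 48 or 72 hours, and parental cells were given GM-CSF at 500 U/mL for the same times. Each of the 18 conditions has 2 replicate RNAs (n = 2). None is of cells kept in IL-3 past 0 hours. At 12 hours the loss of IL-3 therefore cannot be told apart from washing or time in culture. How the mutant receptors were expressed, and whether a line was 1 clone, is not given in the sources used here. The labels do not say that replicates were separate cultures, so p-values cover the spread between these RNAs alone, which may be technical.

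V449E is a valine-to-glutamate substitution in the membrane-spanning segment of the common beta chain, the signalling subunit shared by the receptors for GM-CSF, IL-3 and IL-5, and it lets myeloid cells grow without factor. IL-3 acts through this chain and the kinase JAK2 on STAT5, which switches on feedback inhibitors such as Cish and Socs1 and survival genes such as Bcl2l1, and through the ERK and PI3 kinase pathways on growth and biosynthesis. ATF4 is a transcription factor whose targets supply amino acids, through serine and asparagine synthesis, amino acid transporters and the synthetases that load tRNAs. In growing cells ATF4 output is tied to growth factor signalling through mTORC1, and when amino acids run short it rises through the kinase GCN2.

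Promoters of 6 genes whose RNA changed at 12 hours are printed because they hold a short sequence tied to one of these factors. Chac1, Asns, Yars and Iars fell and Slc7a11 rose, and each holds TGATGNAA, the core of the element that ATF4 binds with C/EBP proteins. Cish fell and holds TTCNNNGAA, the element that STAT proteins bind. The sequences are from RefSeq, build GRCm38.p6, 5′ to 3′ along the gene's strand, with 250 bases before the annotated start and 30 from it on. Capitals mark, on either strand, every match to the sequence just named for that gene. Slc7a11 also holds a match to TTCNNNGAA, which is left in lower case. The windows are chr2:119350992-119351271, plus strand, chr6:7693180-7693459, minus strand, chr4:129189653-129189932, plus strand, chr13:49681880-49682159, plus strand, chr3:50443584-50443863, minus strand, and chr9:107296409-107296688, plus strand.
Chac1: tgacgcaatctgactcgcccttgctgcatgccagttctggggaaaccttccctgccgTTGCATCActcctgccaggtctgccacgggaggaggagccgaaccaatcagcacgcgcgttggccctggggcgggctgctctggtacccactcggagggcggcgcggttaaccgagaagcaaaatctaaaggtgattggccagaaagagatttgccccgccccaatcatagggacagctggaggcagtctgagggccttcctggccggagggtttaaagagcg
Asns: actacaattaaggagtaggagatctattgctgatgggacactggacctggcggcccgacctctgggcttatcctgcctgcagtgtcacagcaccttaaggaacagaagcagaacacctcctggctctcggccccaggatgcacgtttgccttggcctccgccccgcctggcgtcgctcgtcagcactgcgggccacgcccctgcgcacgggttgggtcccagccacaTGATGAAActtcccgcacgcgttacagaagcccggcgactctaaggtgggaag
Yars: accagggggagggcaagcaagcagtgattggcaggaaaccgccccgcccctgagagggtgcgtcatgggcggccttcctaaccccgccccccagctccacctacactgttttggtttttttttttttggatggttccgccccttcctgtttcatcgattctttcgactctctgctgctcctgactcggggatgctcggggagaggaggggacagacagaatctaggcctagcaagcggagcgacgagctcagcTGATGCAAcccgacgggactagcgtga
Iars: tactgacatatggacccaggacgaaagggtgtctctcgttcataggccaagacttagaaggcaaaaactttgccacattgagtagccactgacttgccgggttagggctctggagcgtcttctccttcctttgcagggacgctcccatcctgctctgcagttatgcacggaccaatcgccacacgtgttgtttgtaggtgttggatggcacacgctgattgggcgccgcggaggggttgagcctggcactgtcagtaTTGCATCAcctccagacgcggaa
Slc7a11: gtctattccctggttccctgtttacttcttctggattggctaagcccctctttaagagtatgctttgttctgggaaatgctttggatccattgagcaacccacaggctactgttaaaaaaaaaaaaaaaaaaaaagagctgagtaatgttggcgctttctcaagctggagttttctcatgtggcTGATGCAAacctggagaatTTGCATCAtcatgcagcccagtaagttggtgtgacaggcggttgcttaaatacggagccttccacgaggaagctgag
Cish: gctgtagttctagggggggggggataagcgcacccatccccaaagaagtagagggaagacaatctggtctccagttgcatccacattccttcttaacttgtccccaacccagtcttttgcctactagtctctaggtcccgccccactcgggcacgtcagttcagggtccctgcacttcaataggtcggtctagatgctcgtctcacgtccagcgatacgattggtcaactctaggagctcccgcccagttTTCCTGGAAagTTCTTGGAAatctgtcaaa
In Chac1 the match TTGCATCA begins 193 bases before the start, and in Asns TGATGAAA begins 23 bases before it. In Yars and Iars the match lies 3 and 7 bases past the start. Slc7a11 holds a pair, TGATGCAA 66 bases and TTGCATCA 47 bases before the start, in opposite orientations. Cish holds TTCCTGGAA at the start itself and TTCTTGGAA 11 bases on. Over 300-base windows (50 bases past the start), TGATGNAA occurs in 1304 of 32851 promoters (3.97%) and TTCNNNGAA in 2726 (8.3%). Matches of both overlap in 0 of them, which the letters of the patterns fix in advance, though a promoter can hold both. Of the 16 genes of the ATF4, amino acid transporter and synthetase lists that fell, 11 were matched to a promoter, and 4 of these 11 hold TGATGNAA, against 1219 of 27025 genes (4.51%). Of the 6 STAT5 list genes that fell, 4 were matched, and 1 of these, Cish, holds TTCNNNGAA, against 2582 of 27025 genes (9.55%). Over the whole STAT5 list, 16 of 21 measured genes were matched, and 3 of these hold TTCNNNGAA. The ATF4 and STAT5 lists were made of targets of these factors. A share above that of all genes may follow from that choice and is no result about the fall. Among all genes that fell, 97 were matched, of which 6 hold TGATGNAA and 9 hold TTCNNNGAA. Among those that rose, 77 were matched, of which 2 and 6 do. A match describes letters only.

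At 12 hours some RNAs for amino acid supply and feedback inhibition of cytokine signalling were lower in V449E cells. A few for cell division, such as Top2a and Pclaf, were also lower. Higher were Marco, a scavenger receptor, Fth1, of iron storage, and a few RNAs for lysosomal breakdown. All values are log2 differences of 12 hours over 0 hours, with the table taken to hold log2 of Cy5 over Cy3; this reading is likely, but neither base nor direction is stated. If the direction were the other way, every rise would be a fall. Errors are standard errors (SE) of the fit with n = 2 RNAs per condition. A feature is a gene symbol, or a single probe where it has no symbol or several. Of 20243 features, 271 passed an adjusted p of 0.05 (1.34%), of which 118 were higher (0.583%) and 153 lower (0.756%). The differences were modest: 6 features rose and 8 fell by at least 1 on the log2 scale, and the median over those called was 0.51 for rises and -0.50 for falls. A single symbol names 104 of the features that rose and 124 of those that fell.

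The 4 arrays differed in how strongly they showed these changes. The median over the 118 features that rose was 0.54 and 0.59 on the arrays of replicate 1 with the 12-hour RNA in Cy5 and in Cy3, and 0.60 and 0.41 on those of replicate 2. For the 153 that fell it was -0.45 and -0.55 in replicate 1 and -0.43 and -0.57 in replicate 2. The array of replicate 2 with the 12-hour RNA in Cy3 thus showed the weakest rises and the strongest falls. All 271 had the sign of the fit in the dye-swap mean of both replicates. Replicate means shared a sign in 61.1% of all features, which were not selected by the fit. On all 4 single arrays 260 of the 271 had the sign of the fit. Across the 20243 features the replicate means correlated at r = 0.44. These features share arrays and RNAs, so r is a description. A second route to the same difference runs over other arrays, through FI-Delta cells at 12 and 0 hours, with the same V449E RNAs. It correlated with the direct means at r = 0.43 in replicate 1 and 0.45 in replicate 2, and 264 of the 271 had the same sign on it in both replicates. The arrays of both routes entered the fit that called the 271. Their shared signs therefore follow largely from that choice and are no separate support.

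**Figure D1:**
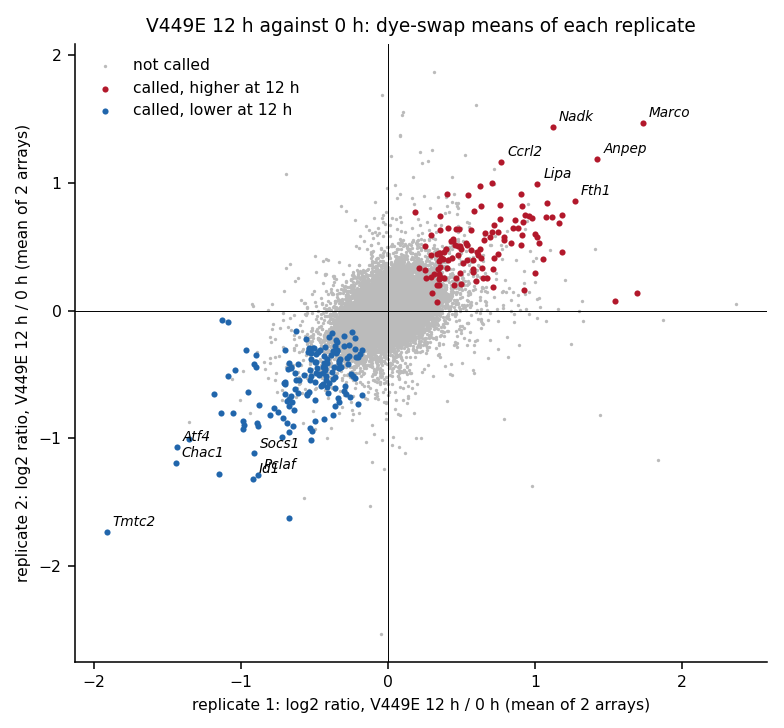
Each point is 1 feature, with the log2 ratio of V449E cells at 12 over 0 hours in replicate 1 (x axis) and in replicate 2 (y axis), each the mean of a dye-swap pair of arrays. The 118 features called higher (red) lie at the upper right and the 153 called lower (blue) in the lower left, with Marco and Tmtc2 farthest out, and the features not called (grey) crowd around 0.

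The number of calls depended on having both RNAs of each time. It was 28 and 20 without the 0-hour RNA of replicate 1 or 2, and 87 and 97 without the 12-hour RNA of replicate 1 or 2. With a single RNA at one of the times, 27, 19, 57 and 74 of the 271 were still called. Leaving out 1 of the 4 arrays gave 246 to 356 calls.

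In each pair of values below, the array with the 12-hour RNA in Cy5 comes first. Atf4 itself, the transcription factor, read -1.35 and -1.52 in replicate 1 and -1.14 and -0.99 in replicate 2. All 4 arrays were far below 0, and the fitted difference was -1.32 ± 0.23 (adjusted p = 0.00453), a level 2.5-fold lower. Chac1, which breaks down glutathione, read -1.23 and -1.65 in replicate 1 and -0.84 and -1.54 in replicate 2. Its fitted difference was -1.17 ± 0.24 (adjusted p = 0.0149), although the route through FI-Delta cells gave only -0.23 in replicate 1. Psat1, an enzyme of serine synthesis, read -0.80 and -1.31 in replicate 1 and -0.56 and -1.05 in replicate 2, and Asns, asparagine synthetase, read -0.67 and -0.88 in replicate 1 and -0.96 and -0.57 in replicate 2. Both were lower on every array, and the fits were -0.95 ± 0.14 (adjusted p = 0.00148) for Psat1 and -0.69 ± 0.13 (adjusted p = 0.00998) for Asns.

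Of 22 measured genes in the list of ATF4 targets and serine synthesis, 9 fell, none rose and the median was -0.52, beside a median of 0.0064 over all features. For this list and those below, the shares over all features were 0.583% higher and 0.756% lower. Shmt2, Mthfd2 and Aldh18a1, mitochondrial enzymes chosen here after their values were seen, were among those that fell. Shmt2, which splits serine, changed by -0.59 ± 0.12 (adjusted p = 0.0121), Mthfd2 of the folate cycle by -0.65 ± 0.15 (adjusted p = 0.0286), and Aldh18a1 of proline synthesis by -0.65 ± 0.12 (adjusted p = 0.0055). Mthfd2 was the least even of these, since it read -0.58 and -1.35 in replicate 1 and -0.74 and 0.12 in replicate 2, with 1 array above 0. Other members did not pass. Phgdh, the first enzyme of serine synthesis, was at 0.078 (adjusted p = 0.92), and Ddit3, the stress factor CHOP, at -0.053 (adjusted p = 0.975). The calls in this list were 2 and 1 without the 0-hour RNA of replicate 1 or 2, and 1 and 7 without the 12-hour RNA of replicate 1 or 2.

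The synthetases that load tRNAs were partly lower. Of 18 measured, 5 fell, none rose and the median was -0.23. Yars, for tyrosine, read -0.93 and -1.03 in replicate 1 and -0.77 and -1.02 in replicate 2, and the arrays differed little. The fit was -0.86 ± 0.17 (adjusted p = 0.0118). Lars, for leucine, was at -0.70 ± 0.14 (adjusted p = 0.0107), Cars, for cysteine, at -0.61 ± 0.13 (adjusted p = 0.0195), and Nars, for asparagine, at -0.60 ± 0.15 (adjusted p = 0.0424). Iars, for isoleucine, was the fifth at -0.55 ± 0.099 (adjusted p = 0.00587), and its arrays ranged widely, with -0.28 and -0.59 in replicate 1 and -0.018 and -0.91 in replicate 2. Those for alanine, Aars, at -0.63 (adjusted p = 0.0544), and glutamine, Qars, at 0.14 (adjusted p = 0.651), did not pass. The calls were 0 and 0 without the 0-hour RNA of replicate 1 or 2, and 1 and 2 without the 12-hour RNA of replicate 1 or 2.

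Amino acid transporters moved in both directions. Slc7a5, the large neutral amino acid transporter, read -0.82 and -1.46 in replicate 1 and -0.074 and -1.52 in replicate 2. The spread between dye orders was wide, and the fit was -0.98 ± 0.17 (adjusted p = 0.00468). Slc1a5, the glutamine transporter, was even across arrays at -0.56 and -0.88 in replicate 1 and -0.79 and -0.89 in replicate 2, with a fit of -0.73 ± 0.093 (adjusted p = 0.000438). Slc7a11, which imports cystine for glutathione, went the other way and read 1.08 and 0.83 in replicate 1 and 1.04 and 0.44 in replicate 2. All 4 arrays were above 0, and the fit was 0.84 ± 0.18 (adjusted p = 0.0216). Of 13 measured transporters in the list, these 3 passed, and the median was -0.15. Slc3a2, the partner chain of both Slc7a5 and Slc7a11, was at -0.11 (adjusted p = 0.832). The calls in the list were 1 and 1 without the 0-hour RNA of replicate 1 or 2, and 1 and 2 without the 12-hour RNA of replicate 1 or 2.

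**Figure D2:**
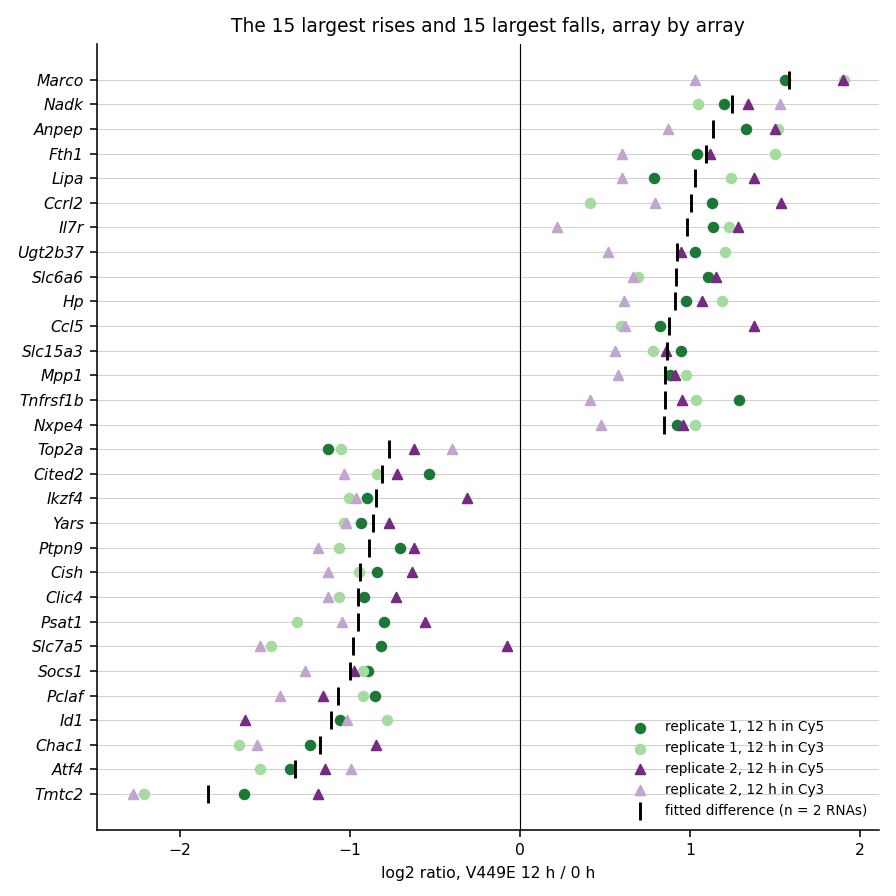
Log2 ratios of V449E cells at 12 over 0 hours (x axis) on each of the 4 arrays for the 15 genes with the largest rise and the 15 with the largest fall, with circles for replicate 1, triangles for replicate 2 and a bar for the fitted difference. Every array lies on the side of its gene's fit, the pale triangles of replicate 2 with the 12-hour RNA in Cy3 are the lowest for most rising genes, and Slc7a5 has 1 array near 0.

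Targets of STAT5 were lower as a minority of the list. Of 21 measured, 6 fell and none rose, and the median was -0.25. Id1, which blocks helix-loop-helix proteins from binding DNA, read -1.06 and -0.78 in replicate 1 and -1.62 and -1.01 in replicate 2. Socs1, a feedback inhibitor of JAK kinases, had little spread, at -0.89 and -0.92 in replicate 1 and -0.97 and -1.26 in replicate 2. Cish, the feedback inhibitor with the STAT elements printed above, read -0.84 and -0.95 in replicate 1 and -0.63 and -1.13 in replicate 2. The fits were -1.11 ± 0.20 (adjusted p = 0.00531), -1.0 ± 0.16 (adjusted p = 0.00306) and -0.94 ± 0.19 (adjusted p = 0.0125). Smaller falls passed for Myc, the growth regulator, at -0.63 ± 0.16 (adjusted p = 0.0464), for Bcl2l1, a survival protein, at -0.60 ± 0.15 (adjusted p = 0.0476), and for Pim1, a survival kinase, at -0.57 ± 0.13 (adjusted p = 0.0347). Socs2 and Socs3 were at -0.29 and -0.44 and did not pass (adjusted p = 0.11 and 0.0689), nor did Mcl1 at 0.19 (adjusted p = 0.512). The list's calls were 1 and 0 without the 0-hour RNA of replicate 1 or 2, and 2 and 1 without the 12-hour RNA of replicate 1 or 2.

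Other signalling genes moved one by one. Ikzf4, a zinc finger transcription factor of the Ikaros family, fell by 0.85 ± 0.12 (adjusted p = 0.00115), and its arrays read -0.90 and -1.0 in replicate 1 and -0.31 and -0.96 in replicate 2. Cited2, a coactivator partner, was at -0.81 ± 0.20 (adjusted p = 0.0454), and Ptpn9, a tyrosine phosphatase, at -0.89 ± 0.12 (adjusted p = 0.000733). Of 29 ERK targets 2 fell, beside 0.756% of all features. These were Etv5, an ETS factor, at -0.72 ± 0.13 (adjusted p = 0.00678), and Spred2, an inhibitor of the pathway, at -0.34 ± 0.083 (adjusted p = 0.04). Of 24 FOXO targets 3 rose and 1 fell, which is Cited2, beside 0.583% and 0.756% of all features. The 3 that rose were Il7r, the IL-7 receptor, at 0.98 ± 0.21 (adjusted p = 0.0182), Trp53inp1, a p53-inducible stress gene, at 0.54 ± 0.12 (adjusted p = 0.0262), and Cat, catalase, at 0.39 ± 0.09 (adjusted p = 0.0304). The 2 probes of Cat disagreed: 1 gave 0.69 (adjusted p = 0.0181) and the other 0.088 (adjusted p = 0.852). The FOXO list had 0, 0, 0 and 1 calls and the ERK list 0, 0, 0 and 1 calls when the 0-hour RNA of replicate 1 or 2, or the 12-hour RNA of replicate 1 or 2, was left out in turn. Prkcb, a protein kinase C, rose by 0.67 ± 0.085 (adjusted p = 0.000438), with 0.65 and 0.77 in replicate 1 and 0.77 and 0.47 in replicate 2.

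Death and stress genes changed in small numbers. In the BCL2 family and death list, 25 were measured, and Bcl2l1 and Casp8 fell while Pmaip1 rose. Casp8, the initiator caspase of death receptors, was at -0.43 ± 0.075 (adjusted p = 0.0047) and read -0.34 and -0.44 in replicate 1 and -0.36 and -0.34 in replicate 2. Pmaip1, the BH3-only protein NOXA, was at 0.52 ± 0.11 (adjusted p = 0.0145) and read 0.46 and 0.42 in replicate 1 and 0.81 and 0.28 in replicate 2. With the same RNAs left out in turn, the death list had 0, 0, 2 and 0 calls. Of 21 p53 targets 1 rose, Trp53inp1, beside 0.583% of all features. Xbp1, a transcription factor of the unfolded protein response, was the only called gene of 17 ER chaperones and related genes. It read -0.61 and -0.69 in replicate 1 and -0.72 and -1.08 in replicate 2, and its fit was -0.74 ± 0.11 (adjusted p = 0.00151).

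Few genes of division and ribosome assembly passed, and those that did fell. Top2a, the topoisomerase of dividing cells, read -1.13 and -1.05 in replicate 1 and -0.62 and -0.40 in replicate 2, with the arrays of replicate 1 lower than both of replicate 2. Its fit was -0.77 ± 0.14 (adjusted p = 0.00659). Pclaf, a partner of the replication clamp PCNA, read -0.85 and -0.92 in replicate 1 and -1.16 and -1.41 in replicate 2 and had a fit of -1.07 ± 0.17 (adjusted p = 0.00237). Of 39 G2/M and mitosis genes 2 fell, Top2a and Cks1b, a cyclin-dependent kinase subunit, at -0.22 ± 0.055 (adjusted p = 0.0449). The 2 probes of Cks1b gave -0.37 and -0.076, and neither passed alone (adjusted p = 0.0993 and 0.886). In that list 37 of 39 were below 0, with a median of -0.21, which was -0.07 without the 12-hour RNA of replicate 1 and -0.34 without that of replicate 2. Its calls were 0 and 0 without the 0-hour RNA of replicate 1 or 2, and 0 and 1 without the 12-hour RNA of replicate 1 or 2. Of 44 G1/S and DNA replication genes none passed, 36 were below 0 and the median was -0.11. Of 32 ribosome biogenesis genes 31 were below 0, with a median of -0.22, and 3 passed. These were Nop58, a box C/D snoRNP protein, at -0.54 ± 0.10 (adjusted p = 0.0104), Wdr43 at -0.50 ± 0.11 (adjusted p = 0.0188) and Utp4 at -0.30 ± 0.071 (adjusted p = 0.0318). The 2 probes of Utp4 disagreed, at -0.44 (adjusted p = 0.0279) and -0.16 (adjusted p = 0.314). The ribosome calls became 0 and 0 without the 0-hour RNA of replicate 1 or 2, and 0 and 1 without the 12-hour RNA of replicate 1 or 2. Heat shock and chaperone genes had a median of -0.18, and none of 19 passed. Over all features the quartiles of the difference were -0.063 and 0.073. Members of 1 list share arrays and RNAs, so these counts below 0 are descriptions.

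Of 19 genes of cholesterol synthesis 17 were below 0, the median was -0.27, and 2 passed. Sqle, squalene epoxidase, was at -0.57 ± 0.13 (adjusted p = 0.0306), and Cyp51, lanosterol demethylase, at -0.67 ± 0.17 (adjusted p = 0.049). Of 14 genes of fatty acid synthesis 2 passed: Fasn, fatty acid synthase, at -0.68 ± 0.13 (adjusted p = 0.0113), and Elovl6, an elongase, at -0.41 ± 0.10 (adjusted p = 0.0476). For Fasn the route through FI-Delta cells gave 0.082 in replicate 1 and -0.87 in replicate 2. The cholesterol calls were 0 and 0 without the 0-hour RNA of replicate 1 or 2, and 0 and 0 without the 12-hour RNA of replicate 1 or 2, and the median was -0.18 without the 0-hour RNA of replicate 2. For fatty acid synthesis the calls were 1 and 0 without the 0-hour RNA of replicate 1 or 2, and 1 and 0 without the 12-hour RNA of replicate 1 or 2. Of 18 glycolysis genes 1 passed, Ldha, lactate dehydrogenase, at -0.66 ± 0.17 (adjusted p = 0.0482), whose arrays read -0.40 and -0.60 in replicate 1 and -0.42 and -1.30 in replicate 2.

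Tmtc2, an endoplasmic reticulum protein of O-mannosylation, had the largest fall of all. It read -1.62 and -2.21 in replicate 1 and -1.18 and -2.27 in replicate 2, with the lower value of each replicate on the array with the 12-hour RNA in Cy3. The fit was -1.83 ± 0.31 (adjusted p = 0.00352), a level 3.56-fold lower. Clic4, an intracellular chloride channel protein, read -0.91 and -1.06 in replicate 1 and -0.73 and -1.13 in replicate 2, with a fit of -0.95 ± 0.15 (adjusted p = 0.00273).

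**Figure D3:**
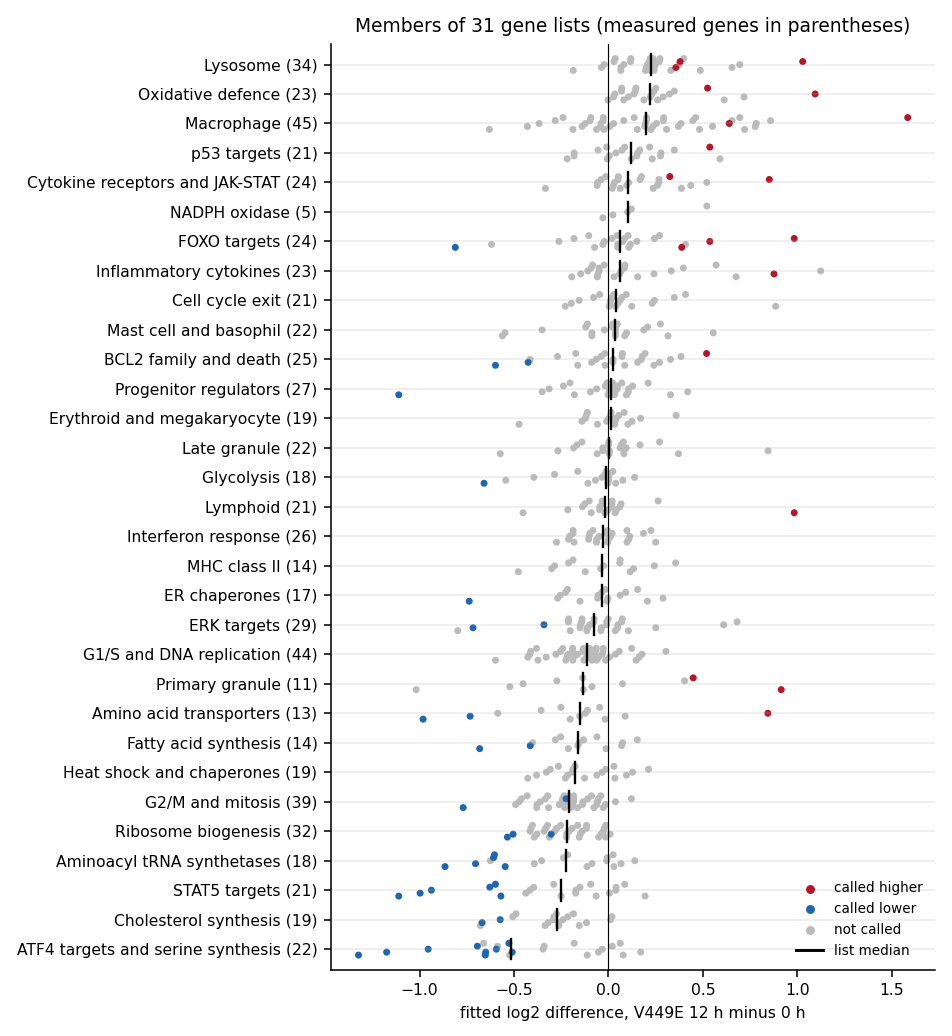
Fitted log2 differences of V449E cells at 12 minus 0 hours (x axis) for each measured gene of 31 lists, ordered by the list's median (black bar), with genes that passed an adjusted p of 0.05 in red (higher) or blue (lower). The ATF4 list has the lowest median at -0.52, and the lysosome and oxidative defence lists the highest at 0.22.

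Among genes that rose, Marco was the largest. Marco, a scavenger receptor of macrophages, read 1.56 and 1.91 in replicate 1 and 1.90 and 1.03 in replicate 2. The lowest array was replicate 2 in Cy3, and the fit was 1.58 ± 0.33 (adjusted p = 0.0181), a level 3-fold higher. Anpep, the myeloid surface peptidase CD13, read 1.33 and 1.52 in replicate 1 and 1.5 and 0.87 in replicate 2 and had a fit of 1.14 ± 0.27 (adjusted p = 0.0372). Ms4a7, a membrane protein of macrophages, was at 0.64 ± 0.14 (adjusted p = 0.0256). Marco and Ms4a7 were the 2 that passed of 45 macrophage genes, with a median of 0.20 and 29 above 0. That median was 0.086 without the 12-hour RNA of replicate 1, and the calls were 0 and 0 without the 0-hour RNA of replicate 1 or 2, and 0 and 1 without the 12-hour RNA of replicate 1 or 2. Clec4d, a myeloid lectin, was at 0.86 (adjusted p = 0.0673), Mpeg1, perforin-2, at 0.78 (adjusted p = 0.106), and Cd14 at 0.72 (adjusted p = 0.197). Adgre1, the F4/80 antigen, was at -0.063 (adjusted p = 0.968).

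Of 34 lysosomal genes measured, 3 rose and none fell. The list's median was 0.22 and 31 were above 0, most of which did not pass. Lipa, the acid lipase, read 0.79 and 1.24 in replicate 1 and 1.38 and 0.60 in replicate 2 and had a fit of 1.03 ± 0.17 (adjusted p = 0.00316), a level 2.04-fold higher. Asah1, acid ceramidase, was at 0.38 ± 0.087 (adjusted p = 0.0292), and Hexa, a hexosaminidase subunit, at 0.36 ± 0.079 (adjusted p = 0.0247). Slc15a3, a lysosomal peptide and histidine transporter, was at 0.87 ± 0.18 (adjusted p = 0.0164). The lysosome calls were 0 and 1 without the 0-hour RNA of replicate 1 or 2, and 1 and 1 without the 12-hour RNA of replicate 1 or 2.

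A few iron and redox genes rose. Fth1, the ferritin heavy chain, read 1.04 and 1.5 in replicate 1 and 1.12 and 0.60 in replicate 2 and had a fit of 1.09 ± 0.24 (adjusted p = 0.0238). Nadk, the kinase that makes NADP, read 1.2 and 1.05 in replicate 1 and 1.34 and 1.53 in replicate 2, which is among the more even of the large rises, and its fit was 1.25 ± 0.17 (adjusted p = 0.000733), a level 2.37-fold higher. Prdx1, a peroxiredoxin, was at 0.52 ± 0.13 (adjusted p = 0.0453). In the oxidative defence list 22 of 23 were above 0, the median was 0.22, and Fth1 and Prdx1 passed. Ftl1, the ferritin light chain, was at 0.72 (adjusted p = 0.142), and Hmox1, heme oxygenase, at 0.35 (adjusted p = 0.643). The calls in the list were 0 and 0 without the 0-hour RNA of replicate 1 or 2, and 0 and 0 without the 12-hour RNA of replicate 1 or 2.

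Ccrl2, a chemerin-binding receptor, read 1.13 and 0.41 in replicate 1 and 1.53 and 0.79 in replicate 2, with both arrays that hold the 12-hour RNA in Cy5 above both others. Its fit was 1.01 ± 0.12 (adjusted p = 0.000438). Tnfrsf1b, a TNF receptor, read 1.29 and 1.04 in replicate 1 and 0.95 and 0.41 in replicate 2 and had a fit of 0.85 ± 0.14 (adjusted p = 0.00273). Stat6, which carries IL-4 signals, was at 0.32 ± 0.07 (adjusted p = 0.0216). Ccl5, a chemokine, read 0.83 and 0.59 in replicate 1 and 1.38 and 0.62 in replicate 2, and its fit was 0.88 ± 0.19 (adjusted p = 0.0247). It was the only one called of 23 inflammatory cytokines, and Ccl3, another chemokine, was at 1.12 without passing (adjusted p = 0.497). Hp, haptoglobin, was at 0.91 ± 0.14 (adjusted p = 0.00237), and Cst7, an inhibitor of cathepsins, at 0.45 ± 0.11 (adjusted p = 0.0427). Hp and Cst7 were the 2 that passed of 11 measured members of the primary granule list, whose median was -0.13. Neither is a granule enzyme, so these 2 rises do not stand for primary granule genes as a group. The sign of that median was not stable: it was 0.11 in the direct means of replicate 1, -0.46 in those of replicate 2, and 0.19 without the 0-hour RNA of replicate 2. Its calls became 0 and 1 without the 0-hour RNA of replicate 1 or 2, and 1 and 1 without the 12-hour RNA of replicate 1 or 2. The enzymes of these granules did not pass: Mpo was at -0.13 (adjusted p = 0.92) and Elane at -0.27 (adjusted p = 0.893). Other large rises were Slc6a6, a taurine transporter, at 0.92 ± 0.20 (adjusted p = 0.0233), Ugt2b37, a glucuronosyltransferase, at 0.92 ± 0.20 (adjusted p = 0.0181), Mpp1, a membrane scaffold protein, at 0.85 ± 0.21 (adjusted p = 0.0473), and Nxpe4 at 0.85 ± 0.13 (adjusted p = 0.00253).

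Defining markers of macrophages, neutrophils, mast cells, erythroid cells and lymphocytes were measured for 25 of 28, and 0 passed in limma, with values from -0.57 to 0.84. Over all features 1.34% passed. The table holds ratios only, so whether a marker is present cannot be read, only whether it changed. In bulk RNA, fewer cells of a type and less RNA per cell cannot be told apart. Of the 31 lists, 22 had a called member and 9 had none. Among those with none were late granule genes, with a median of 0.0048 over 22, mast cell and basophil genes, with 0.036 over 22, and interferon response genes, with -0.03 over 26. In simulated data for this comparison, 85% of features given a log2 difference of 0.5 were called, and 98% of those given 1. Smaller ones were not simulated, and the simulated noise held no error shared by a whole RNA or array. The changes were given to features drawn at random, and the median SE over all features was 0.089. Several markers were far less precise, with an SE of 0.60 for Ltf, 0.52 for Ngp and 0.48 for S100a9. The percentages do not hold for such genes, and a missing call there does not show that they were unchanged.

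The V449E cells were also sampled at 6, 24, 48 and 72 hours. All comparisons against 0 hours share the V449E 0-hour RNAs, and those against 12 hours share the 12-hour RNAs, so values are set side by side. Over the 118 features that rose, the median was 0.26 at 6 hours, 0.38 at 24 hours, 0.096 at 48 hours and 0.10 at 72 hours. For the 153 that fell it was -0.31, -0.26, -0.12 and -0.082. Atf4 was at -0.77 at 6 hours, -1.08 at 24 hours, -0.37 at 48 hours and -0.27 at 72 hours. Slc7a11 was at 1.38 at 6 hours, 0.18 at 24 hours, -0.59 at 48 hours and -0.70 at 72 hours, with its highest value at 6 hours and values below 0 at 48 and 72 hours that did not pass. Marco was at 0.57 at 6 hours, 0.98 at 24 hours, -0.047 at 48 hours and -0.19 at 72 hours. Fth1 was at 0.53 at 6 hours, 1.60 at 24 hours, 0.95 at 48 hours and 0.61 at 72 hours, and Lipa at 0.50 at 6 hours, 1.43 at 24 hours, 0.83 at 48 hours and 0.66 at 72 hours, both highest at 24 hours. Id1 was at -1.10 at 6 hours, -0.27 at 24 hours, 0.12 at 48 hours and -0.069 at 72 hours, and Tmtc2 at -1.80 at 6 hours, -0.80 at 24 hours, 0.17 at 48 hours and 0.19 at 72 hours, so both were about as low at 6 as at 12 hours.

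**Figure D4:**
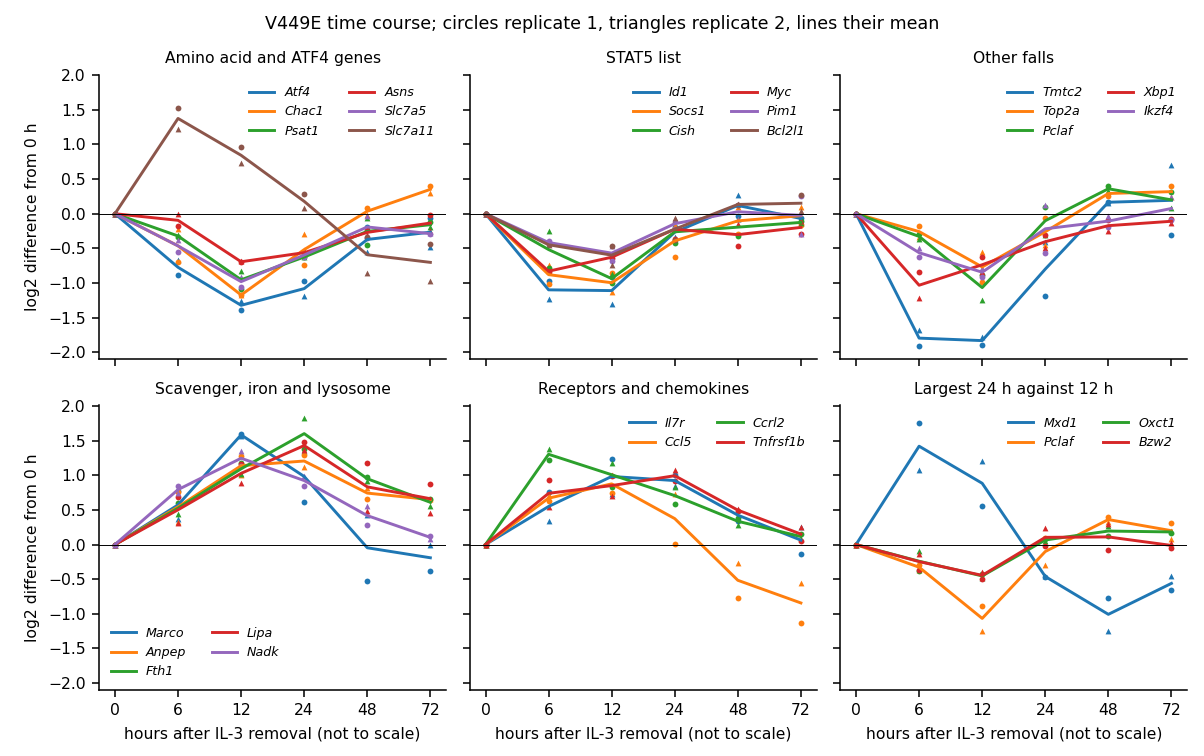
Fitted log2 difference from 0 hours (y axis) in V449E cells at each sampled time (x axis, equally spaced and not to scale) for genes of 6 groups, with a circle for replicate 1, a triangle for replicate 2 and a line for their mean. Slc7a11 and Mxd1 peak at 6 hours, Marco, Chac1 and Pclaf are farthest from 0 at 12 hours, and Fth1 and Lipa at 24 hours.

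Between 6 and 12 hours 3 of 20243 features passed (0.0148%). Prkcb was higher at 12 hours by 0.56 ± 0.085 (adjusted p = 0.0159). Rab38 and Vmn1r44, a vomeronasal receptor, were lower at 12 hours, with differences of -0.68 ± 0.11 (adjusted p = 0.0159) and -0.71 ± 0.12 (adjusted p = 0.0418). Neither passed at 12 against 0 hours: Rab38 was at -0.12 and Vmn1r44 at 0.0039 (adjusted p = 0.809 and 0.998), and at 6 hours they were at 0.56 and 0.72. The count was 22 or 21 without the 12-hour RNA of replicate 1 or 2, 17 without the array of replicate 2 with the 12-hour RNA in Cy5, and 47 with arrays scaled to 1 spread.

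Between 12 and 24 hours 7 features passed (0.0346%), of which 4 were higher at 24 hours. Pclaf was higher at 24 hours by 0.97 ± 0.17 (adjusted p = 0.0267), and so were Igsf8, an immunoglobulin superfamily protein, by 0.61 ± 0.11 (adjusted p = 0.0267), Bzw2, a regulator of translation initiation, by 0.55 ± 0.097 (adjusted p = 0.0276), and Oxct1, an enzyme of ketone body use, by 0.52 ± 0.09 (adjusted p = 0.0267). Mxd1, which competes with Myc for the partner Max, differed by -1.35 ± 0.23 (adjusted p = 0.0267). At 12 hours it read 0.47 and 0.57 in replicate 1 and 1.32 and 1.11 in replicate 2, above 0 on all arrays but higher in replicate 2, and did not pass against 0 hours at 0.88 ± 0.23 (adjusted p = 0.0591). The transcript 4930488B22Rik differed by -0.62 ± 0.11 (adjusted p = 0.0267), but its 12-hour arrays read 0.10 and 1.92 in replicate 1 and -0.26 and 0.43 in replicate 2, with 1 array far above the others. The seventh was a probe without a symbol. The count was 30 without the replicate block, 38 or 26 without the 12-hour RNA of replicate 1 or 2, 20, 16 and 24 without the array of replicate 1 in Cy5, replicate 1 in Cy3 or replicate 2 in Cy5, and 0 with the direct arrays alone.

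Between 12 and 72 hours 392 features passed (1.94%), with 217 higher at 72 hours (1.07%) and 175 lower (0.864%). Of the 153 features that had fallen by 12 hours, 84 were called higher at 72 than at 12 hours, and of the 118 that had risen 56 were called lower. These comparisons share the 12-hour RNAs, so an error in them moves both, and no feature passed at 72 hours against 0 hours (limma; 845 at an unadjusted p under 0.05). Tmtc2 was higher at 72 than at 12 hours by 2.03 ± 0.31 (adjusted p = 0.00114), and Chac1 by 1.53 ± 0.24 (adjusted p = 0.00176). Pclaf was higher by 1.27 ± 0.17 (adjusted p = 0.000289), as were the histone genes H1f1 and H3c7 by 1.21 ± 0.27 (adjusted p = 0.0215) and 1.2 ± 0.24 (adjusted p = 0.0114). The largest in the other direction were Marco at -1.78 ± 0.33 (adjusted p = 0.00795), Ccl5 at -1.72 ± 0.19 (adjusted p = 0.000164), Slc7a11 at -1.55 ± 0.18 (adjusted p = 0.000181), Slc7a9, an amino acid transporter of the same family, at -1.52 ± 0.19 (adjusted p = 0.000255), and Mxd1 at -1.45 ± 0.23 (adjusted p = 0.00195). Of 39 G2/M genes 9 were higher at 72 hours and none lower, and of 22 ATF4 list genes 6 were higher and none lower. The count of 392 became 165 or 84 without the 12-hour RNA of replicate 1 or 2, 38 with levels weighted by their arrays and 15 with the direct arrays alone.

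The same 12 hours were sampled in FI-Delta cells without factor and in parental cells in GM-CSF, each against its own 0-hour RNA. In FI-Delta cells 1053 of 20243 features passed (5.2%), and in GM-CSF 611 (3.02%). Of the features that rose in V449E cells, 82 of 118 (69.5%) also rose in FI-Delta cells, which is 22.0% of the 373 that rose there. Of those that fell, 118 of 153 (77.1%) fell there, which is 17.4% of 680. In GM-CSF 46 of the 118 rose (39.0%, or 18.3% of 252) and 92 of the 153 fell (60.1%, or 25.6% of 359). None of the 271 passed in the opposite direction in either. The fitted levels of the lines are linked through arrays that pair them, and these overlaps were not tested.

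Atf4 was at -1.32 in V449E cells, -1.12 in FI-Delta cells and -1.31 in GM-CSF, with adjusted p of 0.00658 and 0.0043 in the last 2. The medians of its list were -0.52, -0.40 and -0.41. Slc7a11 rose in all 3, by 0.84, 1.17 and 1.21 (adjusted p = 0.000638 and 0.00192 in the last 2). Tmtc2 was at -1.83, -2.56 and -2.04 (adjusted p = 7.71e-05 and 0.00189 in the last 2). Ribosome biogenesis had a median of -0.22 in V449E cells, -0.41 in FI-Delta cells, where 22 of 32 fell, and -0.24 in GM-CSF, where 8 fell. The STAT5 list of 21 genes had medians of -0.25, -0.10 and -0.17. In it 6 fell in V449E cells, 6 fell and 1 rose in FI-Delta cells (where 1.84% of all features rose), and 0 passed in GM-CSF. Over all features 0.756% fell in V449E cells, 3.36% in FI-Delta cells and 1.77% in GM-CSF, so these counts are not on 1 scale. Cish was at -0.94, -0.36 and -0.14, and passed in V449E cells (adjusted p = 0.301 and 0.789 in the others). Marco was at 1.58, 1.43 and 0.23, and Ccl5 at 0.88, 0.15 and 0.55.

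None of these differences between settings passed its own test. In the test of the V449E response minus that of FI-Delta, 0 of 20243 features passed (0%) in limma. An unadjusted p under 0.05 was reached by 307, which is 1.52% of features. This is less than the share of 0.05 expected if nothing differed. The test was thus a cautious one, and the low share does not show that few features differ. The direct arrays alone gave 1412 at that cut and also 0 calls. In the test against GM-CSF 0 passed (0%), with 392 at the unadjusted cut, and the direct arrays alone gave 807 and 2 calls. The difference for Cish was -0.57 ± 0.27 against FI-Delta and -0.80 ± 0.27 against GM-CSF (adjusted p = 1 and 1). For Marco it was 1.36 ± 0.47 against GM-CSF (adjusted p = 1). The median SE of such a difference was 0.13, so small differences between the settings would be missed, and the count of 0 does not show that they respond alike.

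**Figure D5:**
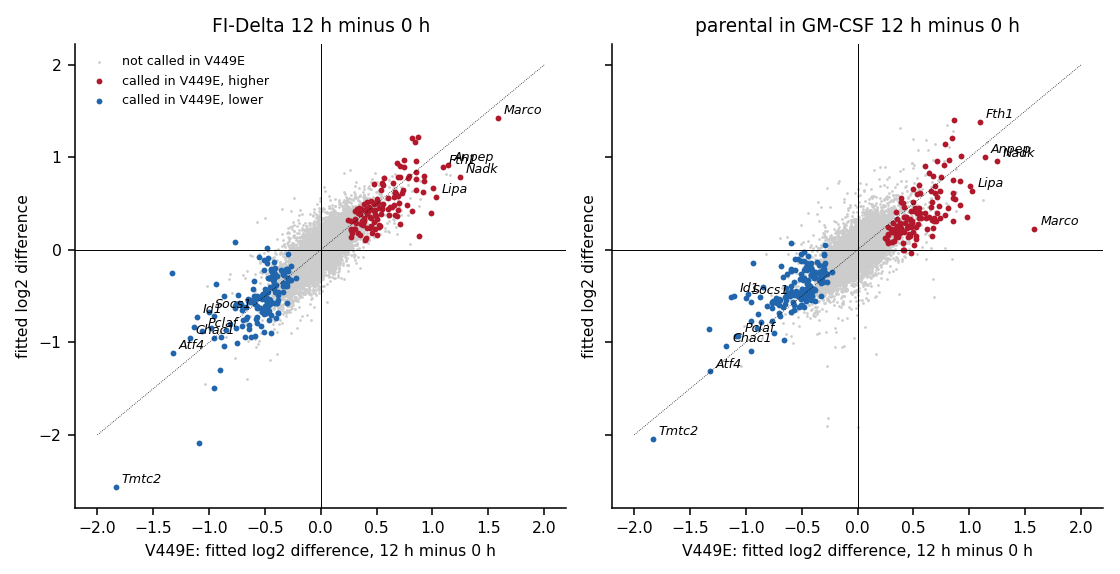
Fitted log2 difference at 12 minus 0 hours in V449E cells (x axis) against that in FI-Delta cells without factor (left, y axis) and in parental cells moved to GM-CSF (right, y axis), with 1 point per feature and the dotted line marking equal values. The features called in V449E cells (red higher, blue lower) lie mostly on the same side of 0 in both panels, and Marco lies near 0 in GM-CSF.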

How the data were processed

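Per the labels, the values are from spotted 2-colour arrays with Cy5 in channel 1. The authors normalised the arrays and reordered the spots of 2 print runs, per the labels, and the submitters' processing notes name limma. The authors' deposited table was taken to hold log2 of Cy5 over Cy3, though neither base nor direction is stated. Background correction and normalisation are not given in the sources used here. Of 23040 probes, 1243 controls were left out and 21797 kept: 16651 have 1 symbol, 137 several and 5009 none. Probes of a symbol were averaged, giving 20243 features.

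All arrays entered the fit, 90 of print run 1 and 26 of run 2, and the 4 described here were in run 1. Ratios were turned, dye swaps averaged to 58 pairs, and least squares within each replicate gave 36 RNA levels. The V449E 12-hour RNAs lay on 4 arrays each and the 0-hour RNAs on 16. On the 4 arrays medians ran from -0.0051 to 0.0053. Turned arrays of the V449E course correlated at r = 0.011 to 0.57 within a dye order. Signal intensities were not used here, so signal over background is not known. In the main fit the SE rests on the spread between fitted RNA levels, not on how many arrays an RNA lay on.

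Levels were tested with limma 3.58.1 (lmFit, eBayes, 2-sided, R 4.3.3), replicate number as a block, with 17 residual and 5.78 prior degrees of freedom. Every array pairs RNAs of 1 replicate number, so the block takes up the degree of freedom lost by centring levels within replicates. Benjamini-Hochberg adjustment ran over all features, threshold 0.05. The fit was tested on simulated data with 200 changed features of 20243, where 0% of 183 calls were false. Noise was drawn separately for each feature, at the spread of the main fit, with no error shared by a whole RNA, array or dye. The 0% therefore does not cover false calls from 1 odd RNA or array.

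Named genes were the 15 called symbols with the largest rise and the 15 with the largest fall, up to 4 called per list, and up to 5 each way in other comparisons. Pim1, Slc7a9, Gss, Atf5, P2ry14, Iars, Mthfd2, Shmt2, Aldh18a1 and members that did not pass were chosen after their values were seen. Members and the 31 lists were chosen with earlier results of these data known, so list counts are no independent support.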

Additional observations from a re-analysis of the deposited data

Results flagged for a closer look

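For 67 genes named above that passed at 12 hours against 0 hours, the 4 arrays were searched for 1 value far from the other 3 (Dixon's test). Chance alone flags about 1 in 20 such groups, and 4 were found. Il7r read 0.22 on the array of replicate 2 with the 12-hour RNA in Cy3, beside 1.13 to 1.28 on the others. Slc7a9 read 0.24 on the same array, beside 0.91 to 1.03. Ikzf4 read -0.31 on the array of replicate 2 with the 12-hour RNA in Cy5, beside -1.0 to -0.90. Gss, glutathione synthetase, read 3.21 on the array of replicate 1 with the 12-hour RNA in Cy3, beside 0.027 to 0.25. Its call (0.68, adjusted p = 0.0262) was lost without that array, at 0.18 (adjusted p = 0.205), with p between 0.000116 and 0.443 over its alternatives, so its rise rests on 1 array.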

How the results depend on the processing

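For V449E at 12 against 0 hours, 271 features passed, and at an adjusted p of 0.01 67 did. The count lay within 1.5 times of 271 without the replicate block (345), with the direct arrays alone (402), print run 1 alone (254), scaled arrays (244), subtracted medians (265), single probes (278), weighted levels (362) and the less variable features left out (304). Leaving out 1 V449E RNA gave 20 to 97, and 1 array, an alternative added after seeing the data, 246 to 356. Without replicate 2 in Cy5 the split was 97 higher and 190 lower, and without replicate 2 in Cy3 184 and 172, beside 118 and 153. Shared with the 271 were 224 of the 402 of the direct arrays. Fewer RNAs raised the median SE from 0.089 to 0.11.

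At 12 against 6 hours the 3 calls became 0 at 0.01, 0 with direct arrays, 0 with weighted levels, 1 with print run 1, 47 with scaled arrays, 3 to 22 without 1 V449E RNA and 2 to 17 without 1 array. At 24 against 12 hours the 7 became 1 at 0.01, 0 with direct arrays, 0 with print run 1, 0 with scaled arrays, 1 with weighted levels, 14 without the less variable features, 30 without the replicate block, 7 to 38 without 1 RNA and 10 to 24 without 1 array. At 72 against 12 hours the 392 became 59 at 0.01, 15 with direct arrays, 258 with print run 1, 38 with weighted levels, 84 to 299 without 1 RNA and 418 to 502 without 1 array. For V449E minus FI-Delta the 0 became 0 to 2 without 1 RNA, and for V449E minus GM-CSF 2 with direct arrays and 1 with print run 1. The causes were not tested.

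Of the 67 named genes that passed, every one kept its direction under every alternative run. These genes were chosen because they were called, and the alternatives reuse arrays and RNAs of the main fit. The kept directions therefore follow largely from that choice and are no separate support. The calls of the 67 were all kept without the replicate block and with subtracted medians, but neither alternative could change much. Levels are centred within replicates, so leaving out the block kept the differences and lowered the median SE to 0.0865. The medians of all arrays already lay between -0.016 and 0.011. They were lost by 53 and 57 without the 0-hour RNA of replicate 1 or 2, by 47 and 37 without the 12-hour RNA of replicate 1 or 2, by 12 with print run 1, by 17 without the array of replicate 2 with the 12-hour RNA in Cy5, and by 12 without that of replicate 1 in Cy3. With only the arrays that hold the 12-hour RNA in Cy3, 33 of the 67 differences moved by more than the SD between replicates, and with only those in Cy5 30 did. Of the 15 largest rises 4 to 8 and of the 15 largest falls 3 to 10 stayed called without 1 RNA.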

Other observations

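The smallest p for the V449E response minus that of FI-Delta belonged to Atf5, a relative of ATF4, chosen here after its values were seen. It differed by -0.78 ± 0.16 (limma, adjusted p = 1). In V449E cells it read -0.05 and -0.29 in replicate 1 and -0.46 and -0.23 in replicate 2, with a fit of -0.35 ± 0.11 (adjusted p = 0.141), and in FI-Delta cells it rose by 0.44 (adjusted p = 0.0242). In GM-CSF it was at 0.31 (adjusted p = 0.132). P2ry14, a receptor for UDP-sugars, had the smallest p against GM-CSF, with -0.87 ± 0.17 (limma, adjusted p = 0.815). It was at -0.35 in V449E cells and 0.52 in GM-CSF (adjusted p = 0.186 and 0.0251).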
